A study of Mus musculus with 3 samples.

Results

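Calb2, Nov, Ntn5 and Grp are 4 protein-coding genes whose hippocampal RNA level in PS19 mice lay below the level in both other genotypes sequenced. They were picked by gene name from 54532 genes because of that pattern, so the low PS19 value is how they were chosen and not a finding. Hippocampal RNA came from mice 10 months old on a C57BL/6 background, as 1 library each of WT, PS19, and PS19 with the Zbp1+- genotype (PS19 Zbp1+-). PS19 animals carry a human mutant tau transgene under the mouse prion protein promoter, and both PS19 libraries share it. Zbp1+- marks the loss of one allele of Zbp1, a sensor of Z-form nucleic acids. The labels give no sex and do not say whether animals were pooled. With 1 library per genotype no difference has a replicate check and no test was made. Every interval below is a 95% interval of counting error only.

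The 4 genes encode proteins of unlike kinds. Calb2 encodes calretinin, an EF-hand protein that binds calcium in the cytosol and marks subsets of interneurons, mossy cells of the hilus in the mouse, and young granule neurons of the dentate gyrus. Nov, now named Ccn3, encodes a secreted matricellular protein of the CCN family that binds integrins. Ntn5 encodes netrin-5, a secreted relative of the axon guidance cue netrin-1, with expression described in neurogenic regions of the adult brain. Grp encodes gastrin-releasing peptide, a bombesin-like neuropeptide that acts on a G protein-coupled receptor encoded by Grpr. In bulk tissue, fewer cells of one type and less RNA in each cell cannot be told apart.

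Of the 4 genes, 1 had an entry among the RefSeq promoter windows (GRCm38.p6), and it is shown because Ntn5 had the largest read ratios against PS19 of the 4. The 250 bases before the Ntn5 start, at chr7:45683772-45684021 on the plus strand, are given 5′ to 3′ with matches to the E-box CANNTG in capitals.
Ntn5: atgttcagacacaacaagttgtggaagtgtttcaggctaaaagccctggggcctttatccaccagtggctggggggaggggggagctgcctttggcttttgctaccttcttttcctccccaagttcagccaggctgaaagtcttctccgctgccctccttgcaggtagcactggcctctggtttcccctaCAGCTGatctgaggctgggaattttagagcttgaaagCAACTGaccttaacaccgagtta
Both strands were searched for 6 motifs: the TATA box TATAAA, the CCAAT box CCAAT, the GC box GGGCGG, the cAMP response element TGACGTCA, the AP-1 site TGANTCA and the E-box. The window held 2 E-box matches, starting at positions -60 and -23 from the gene start, and 0 matches to the others. An E-box match occurred in 66.2% of 32536 promoter windows of the same length. The other motifs occurred in 12.3% (TATA box), 33.8% (CCAAT box), 33% (GC box), 1.56% (cAMP response element) and 6.73% (AP-1 site) of them. The GC content of the Ntn5 window, 52.8%, was near the median of 52.4% over all windows.

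The genes lie on 4 chromosomes, with positions as the deposited table gives them, which follow GRCm38. Calb2 (ENSMUSG00000003657) spans 110137502 to 110168210 on the minus strand of chromosome 8. Nov (ENSMUSG00000037362) spans 54745702 to 54754039 on the plus strand of chromosome 15. Ntn5 (ENSMUSG00000070564) spans 45684022 to 45694556 on the plus strand of chromosome 7, and Grp (ENSMUSG00000024517) spans 65872820 to 65886579 on the plus strand of chromosome 18. They are thus not neighbours, and their gene lengths in the table differ, with 1743 bases for Calb2, 2869 for Nov, 2216 for Ntn5 and 1059 for Grp.

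Levels are in FPKM, a read count divided by gene length and by library size, so that they can be compared between genes. The whole reads behind these values summed to 16746085 for WT, 16400328 for PS19 and 17109734 for PS19 Zbp1+-. In the same order, the library sizes that the FPKM values imply were 17253479, 17287957 and 15826984. Only that of PS19 Zbp1+- lies below its read sum. Its ratios to the other libraries are thus higher than with scaling by total reads. Zbp1 itself was at 1.49 FPKM in PS19 (91 reads), against 0.0821 in WT (5 reads) and 0 reads in PS19 Zbp1+-, where the limit taken for a count of 0, 3 reads, is 0.0537 FPKM. With so few reads in WT, these counts do not tell a lost allele from a gene at rest. Mapt, the mouse tau gene, was near 63.0 FPKM in WT and 65.1 to 65.3 in the PS19 libraries. The X-inactivation RNA Xist had 0 reads in PS19 Zbp1+-, against 11062 for WT and 13350 for PS19, while the Y-linked Ddx3y had 711 reads there and 0 in the others. Sex and genotype therefore cannot be told apart in either comparison with PS19 Zbp1+-.

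Calb2 had an FPKM of 31.2 in WT (937 reads, interval 29.2 to 33.2), 9.49 in PS19 (286 reads, 8.42 to 10.7) and 34.8 in PS19 Zbp1+- (960 reads, 32.6 to 37.1). The PS19 library stood apart at the low end, while the WT and PS19 Zbp1+- intervals overlapped. By reads per library size, WT was 3.28-fold above PS19 (2.87 to 3.76) and PS19 Zbp1+- was 3.67-fold above PS19 (3.21 to 4.2). PS19 Zbp1+- against WT gave a ratio of 1.12 (1.02 to 1.22). On the log2(FPKM + 1) scale that last difference was 0.15, and it became 0.0039 when libraries were scaled by total reads.

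Nov had the highest level of the 4 in every library, at 53.1 FPKM in WT (2626 reads, 51 to 55.1), 19.8 in PS19 (983 reads, 18.6 to 21.1) and 90.9 in PS19 Zbp1+- (4128 reads, 88.2 to 93.7). All 3 intervals were separate, with PS19 lowest and PS19 Zbp1+- highest. WT was 2.68-fold above PS19 (2.49 to 2.88), and PS19 Zbp1+- was 4.59-fold above PS19 (4.28 to 4.92). PS19 Zbp1+- was also 1.71-fold above WT (1.63 to 1.8). Nov stood at the 93.6th percentile of coding genes above 1 FPKM for WT, at the 80.8th in PS19 and at the 96.5th in PS19 Zbp1+-.

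Ntn5 was the least abundant, at 3.77 FPKM in WT (144 reads, 3.18 to 4.43), 0.835 in PS19 (32 reads, 0.571 to 1.18) and 6.33 in PS19 Zbp1+- (222 reads, 5.52 to 7.22). Its intervals did not overlap between any pair of libraries, and the order was that of Nov. The ratios were the largest of the 4 genes, with WT 4.51-fold above PS19 (3.06 to 6.84) and PS19 Zbp1+- 7.58-fold above PS19 (5.21 to 11.4). Against WT, PS19 Zbp1+- was 1.68-fold higher (1.36 to 2.09). Ntn5 shares its locus with Sec1, a fucosyltransferase gene on the opposite strand, and 519 of its 2216 exonic bases, or 23.4%, are also exonic in Sec1. Whether the counting used strand is not given in the sources used here, so reads of the pair cannot be told apart there. Sec1 had 37 reads for PS19, against 87 for WT and 76 for PS19 Zbp1+-, also lowest in PS19 but without the excess over WT.

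Grp had 16.9 FPKM in WT (308 reads, 15 to 18.9), 6.34 in PS19 (116 reads, 5.24 to 7.6) and 36.6 in PS19 Zbp1+- (614 reads, 33.8 to 39.7). The 3 intervals were separate, again with PS19 lowest and PS19 Zbp1+- highest. WT was 2.66-fold above PS19 (2.14 to 3.32) and PS19 Zbp1+- was 5.78-fold above PS19 (4.73 to 7.11). Of the 4 genes, Grp had the largest excess of PS19 Zbp1+- over WT, a ratio of 2.17 (1.89 to 2.5). Its difference there, 1.08 on the log2(FPKM + 1) scale, was the only one of the 4 to reach 1 log2 unit. It lay under that step at 0.95 in TPM, 0.93 by total reads and 0.95 per summed neuronal markers. Over all genes tested 1.07% were that much higher.

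**Figure D1:**
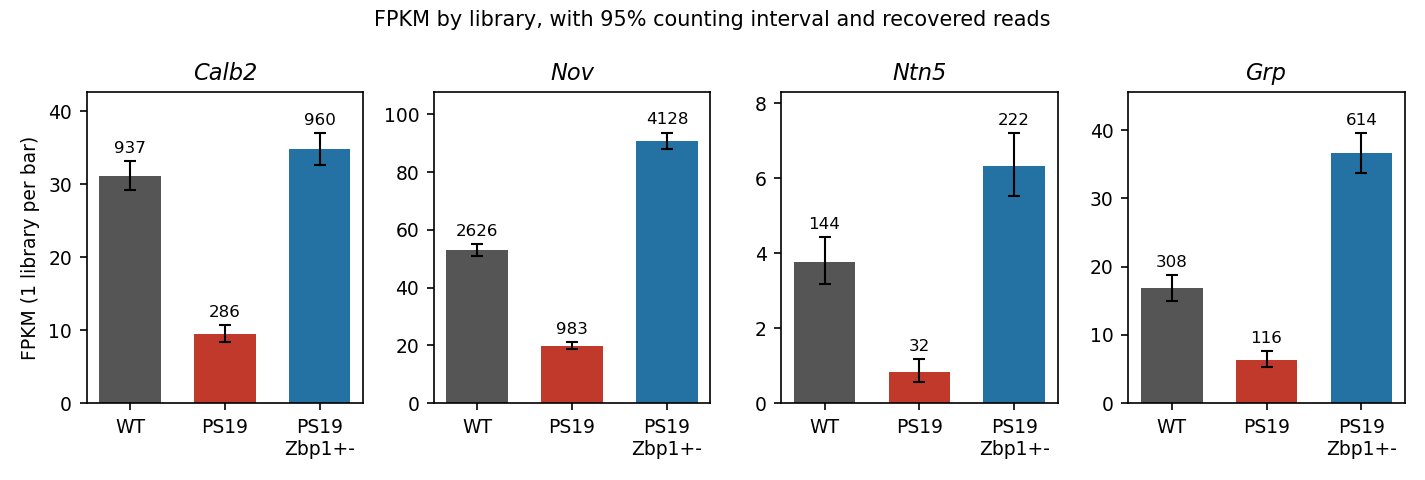
FPKM of Calb2, Nov, Ntn5 and Grp in the 3 libraries (1 bar per library, linear axis from 0), with error bars for the 95% counting interval and the number of reads above each bar. PS19 is the lowest bar in each panel, and PS19 Zbp1+- lies clear of WT for Nov (90.9 against 53.1), Ntn5 (6.33 against 3.77) and Grp (36.6 against 16.9), while the Calb2 intervals overlap.

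Within a library, levels per length ran Nov, Calb2, Grp, Ntn5 in WT and in PS19. In PS19 Zbp1+- Grp and Calb2 changed places, but Grp was only 1.05-fold above Calb2 (0.95 to 1.17), which counting error does not separate. The nearest other step was that from Calb2 to Grp in PS19, a ratio of 1.5 (1.2 to 1.88). The widest step lay between Grp and Ntn5 in PS19, a ratio of 7.59 (5.09 to 11.6).

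On the log2(FPKM + 1) scale, which understates differences of weakly expressed genes, PS19 minus WT was -1.62 for Calb2, -1.38 for Nov, -1.38 for Ntn5 and -1.28 for Grp. All 4 thus lay past 1 log2 unit below WT, where 0.291% of the 12703 coding genes that reached 1 FPKM in WT or PS19 lay, beside 2.2% that far above it. These values chose the genes, so the count carries no weight, and Ntn5 passed the 1 FPKM minimum through WT alone. By any amount, 53.7% of those genes were lower and 46.3% higher. Calb2 ranked 6th from the lowest among those genes, Ntn5 10th, Nov 11th and Grp 17th. The median over all genes was -0.03, with the central 95% between -0.60 and 0.93.

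PS19 Zbp1+- minus PS19 was 1.77 for Calb2, 2.14 for Nov, 2.0 for Ntn5 and 2.36 for Grp. All 4 were past 1 log2 unit, where 2.0% of 12772 genes lay, beside 5.16% that far below, and again these values entered the choice. By any amount, 53.7% of genes were higher and 46.3% lower. Grp ranked 4th from the highest, Nov 6th, Ntn5 11th and Calb2 20th. The overall median was 0.04. This comparison and the one before share the PS19 library, so the opposite signs of their differences are not independent. Against WT, the PS19 Zbp1+- differences of Calb2, Nov, Ntn5 and Grp had a median of 0.69, beside 0.01 over 12436 genes, of which 2.28% were lower by at least 1 log2 unit, and 51.0% were higher and 49.0% lower by any amount.

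PS19 lay at least 1 log2 unit below both other libraries for 18 of 12875 genes (0.14%). For 17 of those 18, the 4 genes included, PS19 Zbp1+- lay above WT, so that excess is not particular to the 4. Ranked by the smaller of the 2 gaps, Calb2 was 1st at 1.62, Ntn5 3rd and Nov 4th at 1.38 each, and Grp 5th at 1.28. The 2nd, Gm8186 at 1.40, is not in the set. It is a predicted gene with only 13 reads for PS19, against 45 for WT and 84 for PS19 Zbp1+-. Just outside stood Rprm at 1.17, which encodes the cell cycle regulator reprimo, at 8.72 FPKM in PS19 against 20.9 in WT and 22.7 in PS19 Zbp1+-. Dio3, the enzyme that inactivates thyroid hormone, followed at 1.16, with 1.2 FPKM in PS19 against 3.91 in WT and 13.01 in PS19 Zbp1+-. Ttc9b was at 1.13, Hes5, a Notch effector, at 1.11 and Dcn, which encodes the proteoglycan decorin, at 1.11.

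**Figure D2:**
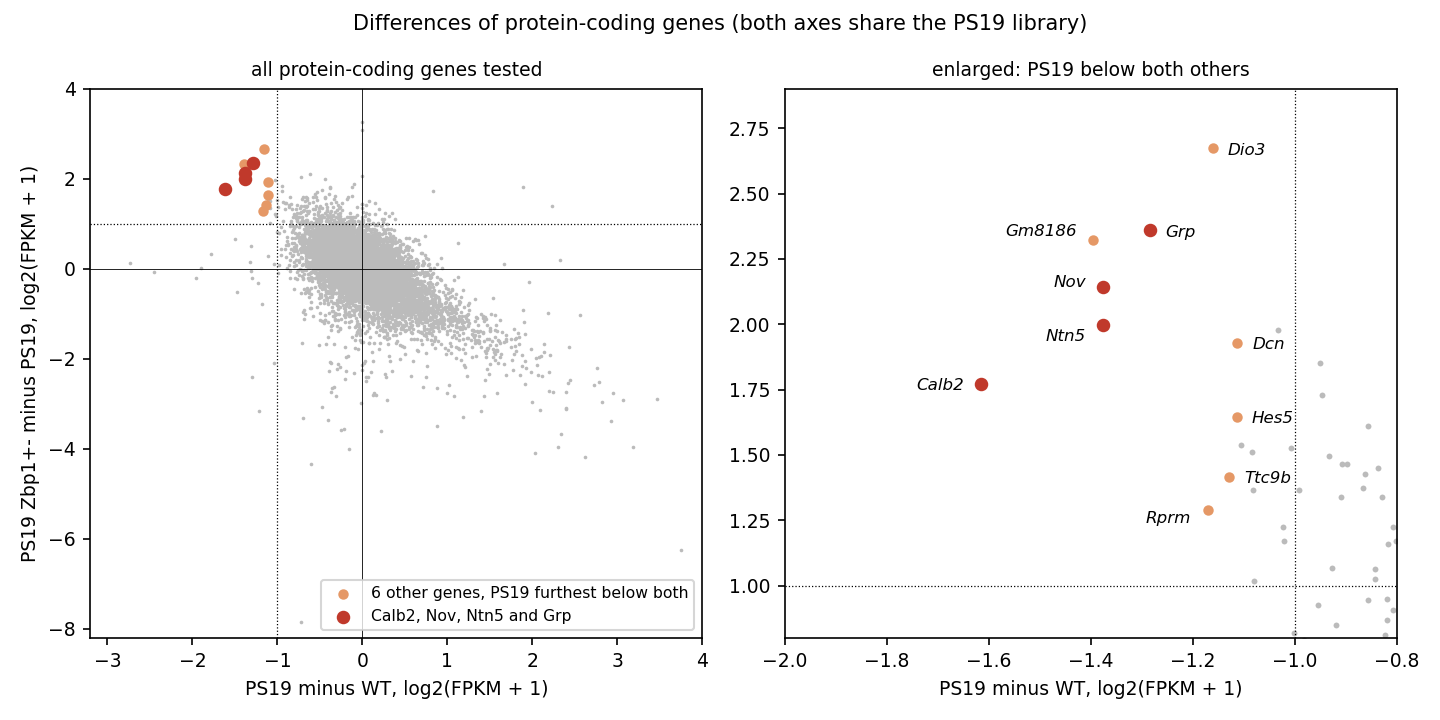
Each point is a coding gene that reached 1 FPKM in a library, placed by its difference of log2(FPKM + 1) between PS19 and WT (x axis) and between PS19 Zbp1+- and PS19 (y axis), with the upper left enlarged at right and dotted lines at 1 log2 unit. Calb2 lies furthest left of the labelled genes at -1.62, and Grp lies highest of the 4 genes at 2.36, while Dio3 lies higher still at 2.67.

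Likeness of pattern was measured as the distance between profiles of log2(FPKM + 1) over the 3 libraries, each centred on its own mean, among 12871 other coding genes. For Nov the nearest were Gm8186 (distance 0.14 log2 units), Dcn (0.20) and Hs3st2 (0.24), which encodes a heparan sulfate sulfotransferase. For Grp they were Gm8186 (0.11), Hs3st2 (0.27) and Dcn (0.31). Ntn5 was nearest to Dcn (0.19), Gm8186 (0.26) and Hes5 (0.26). Calb2 had no profile as near, with Ttc9b at 0.36, the keratin gene Krt77 at 0.36 and Hes5 at 0.37. Among the 4 genes, Nov and Ntn5 were closest at 0.12 and Calb2 and Grp furthest at 0.66. Dcn was at 4.7 FPKM in PS19, against 11.3 in WT and 20.7 in PS19 Zbp1+-. With 3 libraries a profile has few degrees of freedom, so a small distance is a description only.

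Genes beside the 4 loci did not share one pattern. Mal2, the nearest coding gene before Nov at 143 kb, encodes a membrane trafficking protein and was lowest in PS19, at 39.0 FPKM against 65.8 for WT and 79.5 for PS19 Zbp1+-. In the order WT, PS19, PS19 Zbp1+-, which is kept below, Enpp2 (autotaxin), 84.9 kb after Nov, had 286.1, 257.4 and 15 FPKM. Car11, 5.29 kb after Ntn5, had 71.4, 48.02 and 60.5 FPKM. Cmtr2, 47.5 kb after Calb2, had differences of -0.11 from WT to PS19 and 0.44 from PS19 to PS19 Zbp1+-, and Sec11c, 55.2 kb before Grp, had 0.04 and -0.26. The other flanking genes, Gm21964, Fut2 and Rax, had at most 12 reads in a library.

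Calb2 belongs to the EF-hand calcium buffers and sensors, of which 17 others reached an FPKM of 1. In PS19, 16 of them were lower than in WT and 1 was higher, with a median of -0.38, and in PS19 Zbp1+- 16 were higher than in PS19, with a median of 0.50. Rescaled so that length-corrected levels have the same sum in each library (TPM), these counts were 14 lower and 12 higher. Past 1 log2 unit below WT was 1 of the 17, Calb1, which encodes calbindin, a buffer of CA1 and dentate granule neurons. Calb1 was lowest in PS19, at 11.6 FPKM (971 reads), against 24.55 for WT (2053 reads) and 27.3 for PS19 Zbp1+- (2096 reads). Its differences were -1.02 between PS19 and WT and 1.17 between PS19 Zbp1+- and PS19. In TPM no gene of the 17 was past 1 log2 unit between PS19 and WT. From PS19 to PS19 Zbp1+- 2 of the 17 were past it upward, Calb1 and Hpcal4, the latter at 1.39, or 1 in TPM. Hpcal1, a visinin-like calcium sensor, had 33.3, 16.7 and 32.6 FPKM. The related sensor Hpcal4 had 169.6, 106.5 and 281.1 FPKM, and Necab1 13.6, 7.65 and 13.4 FPKM.

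Pvalb, the buffer of fast-spiking interneurons, went the other way, with 31.6, 36.7 and 28.2 FPKM. Calm2 and Calm3, which encode calmodulin, differed less than Calb2, with PS19 minus WT at -0.64 for Calm2 and -0.38 for Calm3. PS19 minus WT was -0.21 for Hpca, -0.35 for Vsnl1, -0.09 for Ncs1, -0.55 for Ncald, -0.46 for Necab2 and -0.65 for Necab3. Cabp1 was at -0.33, Cabp7 at -0.15 and Caln1 at -0.02. Scgn, Rcvrn, Ocm and S100g had at most 20 reads in a library.

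Nov was set beside the other CCN genes and the integrin and Notch genes of its binding partners. Of 9 others with an FPKM of 1 in PS19 or WT, 8 were higher in PS19, with a median of 0.39, and 8 were lower in PS19 Zbp1+- than in PS19, with a median of -0.64. TPM scaling left both counts at 8. Wisp2 and Itga5 passed the 1 FPKM minimum through PS19 alone, and the direction of Nov was part of its choice, so nothing is read from the contrast. In TPM 4 of the 9 were higher in PS19 than in WT by at least 1 log2 unit. From PS19 to PS19 Zbp1+- 5 of the 9 were that much lower in TPM. The 1 gene of the 9 with the other direction in both comparisons was Ctgf (Ccn2), a growth factor-like CCN protein, with 5.0 FPKM for WT, 2.83 for PS19 and 5.63 for PS19 Zbp1+-. Cyr61 (Ccn1) had 3.67, 4.07 and 1.91 FPKM, and Wisp2 had 6, 40 and 10 reads. Among the integrins, Itgb5 was the one past 1 log2 unit, at 18.25, 38.9 and 20.8 FPKM. Itga6 had 2.63, 5.29 and 2.36 FPKM, and PS19 minus WT was 0.31 for Itgav, 0.24 for Itgb1 and 0.39 for Itga5. Notch1 had 1.39, 3.5 and 2.85 FPKM. Wisp1, Wisp3 and Itgb3 stayed under 1 FPKM.

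The netrin list held 13 others with an FPKM of 1, and none of them was past 1 log2 unit between PS19 and WT. Their median was 0.12, with 8 higher and 5 lower. Ntn1, the classical netrin, had 1.25, 2.05 and 2.15 FPKM, and Ntn4 had 2.96, 3.12 and 1.72 FPKM. Of the membrane-anchored netrin-G genes, Ntng2 had 14.6, 10.25 and 24.35 FPKM, while Ntng1 had 5.86, 6.61 and 9.02. The netrin receptor gene Unc5a had 48.4, 36.01 and 95.15 FPKM, so that it too was highest in PS19 Zbp1+-. PS19 Zbp1+- minus PS19 was 1.38 for Unc5a and 1.17 for Ntng2, the pair past 1 log2 unit in that comparison. From PS19 to PS19 Zbp1+- 10 were higher and 3 lower, which TPM scaling turned to 7 and 6, with 1 past 1 log2 unit upward and 1 downward. Against WT, 11 of the 13 were higher in PS19 Zbp1+- and 2 lower, with a median of 0.49, and TPM scaling left these counts unchanged.

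The receptor genes Dcc and Neo1 had 0.826, 1.4 and 1.45 FPKM, and 10.35, 12.6 and 14.1 FPKM. PS19 minus WT was 0.47 for Unc5b, 0.12 for Unc5c, -0.06 for Unc5d and 0.32 for Dscam. Lrrc4c and Lrrc4, whose products bind netrin-G proteins, were at -0.29 and -0.05.

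Around Grp, the sister peptide gene Nmb (neuromedin B) had 4.09, 3.355 and 3.03 FPKM, without the higher level that Grp had there. The Grp receptor gene Grpr had 7, 13 and 27 reads, under 1 FPKM throughout. Nmbr, the neuromedin B receptor gene, had 1.06, 0.502 and 0.822 FPKM. Brs3 had at most 2 reads.

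**Figure D3:**
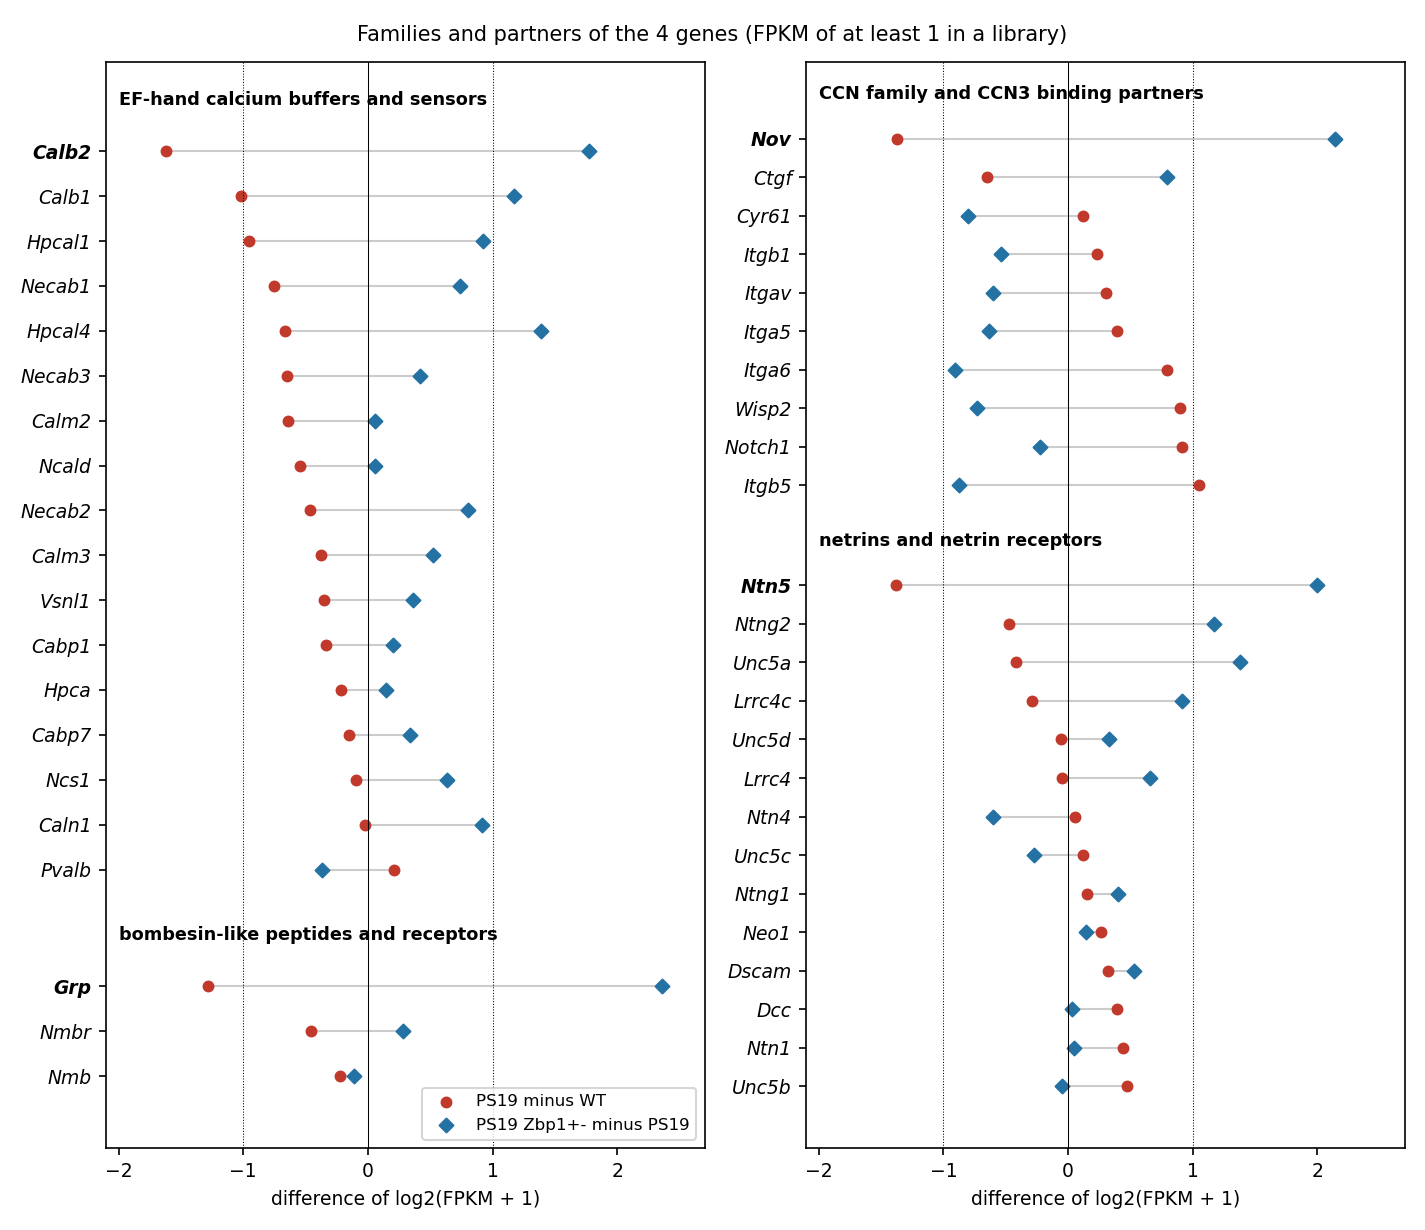
Difference of log2(FPKM + 1) between PS19 and WT (red circles) and between PS19 Zbp1+- and PS19 (blue diamonds) for genes of the 4 family lists above 1 FPKM in a library, with dotted lines at 1 log2 unit. Calb2, Nov, Ntn5 and Grp have the leftmost circle and the rightmost diamond of their lists. After Calb2, the next circle of its list is Calb1 at -1.02 and the next diamond is Hpcal4 at 1.39. Itgb5 has the rightmost circle at 1.05.

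Marker lists for cells and regions known for some of these genes, or reached by a wider dissection, were read in the same libraries, and their part in the 4 genes' pattern was not tested. Pan-neuronal markers were lower in PS19 than in WT for 8 of 8 genes, with a median of -0.26, and higher in PS19 Zbp1+- than in PS19 for 8 of 8, with a median of 0.45. TPM scaling left 5 and 7 of them so. The summed FPKM of that list was 928, 770 and 1050. Taken per that sum, log2 ratios of PS19 to WT were -1.44 for Calb2, -1.15 for Nov, -1.90 for Ntn5 and -1.14 for Grp. The same ratios for PS19 Zbp1+- to PS19 were 1.43 for Calb2, 1.75 for Nov, 2.48 for Ntn5 and 2.09 for Grp.

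Among the cells known to express calretinin, mossy cell markers had summed levels of 64.8, 56.5 and 63.4 FPKM, and none of the 6 was past 1 log2 unit in PS19. Most of it came from Ociad2, at 43.0, 38.6 and 35.8 FPKM, and Ajap1 had 16.3, 12.3 and 22.3 FPKM. In PS19, 3 of the 6 were lower than in WT and 3 higher, with a median of -0.03. From PS19 to PS19 Zbp1+- 4 were lower and 2 higher, with a median of -0.04. Markers of immature granule neurons summed to 282, 240 and 375 FPKM. Tubb3 and Stmn1, which are broadly neuronal, held most of that sum. Of the others, Dcx had 1.25, 1.14 and 1.17 FPKM, and Neurod1 had 351, 203 and 300 reads. Eomes, a marker of intermediate progenitors, had 41, 12 and 0 reads, and Igfbpl1 had 60, 21 and 7. Both were thus lower in PS19 than in WT, and lower again in PS19 Zbp1+-, and Eomes stayed under 1 FPKM. Over the list, 6 of 9 genes were lower in PS19 than in WT and 3 higher. From PS19 to PS19 Zbp1+- 7 of 8 were higher and 1 lower, or 5 and 3 in TPM. Sox11 was among the higher ones, with 328, 221 and 361 reads, and the lower one was Prox1, with 1268, 1379 and 690. Draxin had 4, 22 and 0 reads. Eomes, Igfbpl1 and Draxin were under 1 FPKM in PS19 and PS19 Zbp1+-. They are thus not among the 8, and each was lower in PS19 Zbp1+-. GABAergic interneuron markers summed to 843, 615 and 830 FPKM, with none of 15 past 1 log2 unit between PS19 and WT. Sst and Cck held most of that sum. In PS19, 10 of the 15 were lower than in WT and 5 higher, or 8 and 7 in TPM. Cck, Lamp5 and Sst had PS19 minus WT differences of -0.75, -0.66 and -0.64, while Gad1 was at 0.0025 and Vip at -0.13. Gad2 was at 0.38, and Slc32a1 and Pvalb were at 0.21 each. Cajal-Retzius markers summed to 10.9, 14.4 and 11.7 FPKM, most of it from Reln, Ndnf and Cacna2d2. Of the others, Trp73 had 120, 153 and 42 reads, Lhx1 13, 33 and 0, and Lhx5 9, 26 and 2. Nhlh2 had 21, 47 and 14 reads, and Ebf3 61, 30 and 14.

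Regional markers differed between the libraries. Thalamus and habenula markers summed to 29.6, 64.9 and 13.2 FPKM, and 6 of 9 were past 1 log2 unit above WT in PS19. They included Synpo2 at 1.57, Plekhg1 at 1.54 and Prkcd at 1.39. Of the 9, 8 were higher in PS19 and 1 was lower, Tac1 at -0.49. Synpo2, Tcf7l2 and Lef1 passed the 1 FPKM minimum through PS19 alone. Some thalamic neurons also express Calb2. Dorsal hippocampus markers summed to 85.6, 65 and 53.6 FPKM, and ventral hippocampus markers to 39, 31.9 and 56.4. Of the 8 ventral genes, 4 were lower and 4 higher in PS19 than in WT. From PS19 to PS19 Zbp1+- 6 were higher and 2 lower, or 5 and 3 in TPM. PS19 minus WT was -1.11 for Dcn, -0.73 for Trhr, -0.34 for Lypd1 and -0.04 for Htr2c, and 0.30 for Plagl1, 0.25 for Tox3, 0.05 for Coch and 0.03 for Gpr101. Coch was lowest in PS19 Zbp1+-, at 1.18 FPKM. Subiculum markers summed to 26, 26.2 and 40 FPKM, and neocortex markers to 39.9, 30.8 and 64. Of the 6 subiculum genes above 1 FPKM in WT or PS19, 3 were lower and 3 higher in PS19, and of the 6 neocortex genes 4 were lower and 2 higher. From PS19 to PS19 Zbp1+-, 6 of 7 subiculum genes and 5 of 6 neocortex genes were higher, against 4 and 3 in TPM. Fn1 of the subiculum list had 3.67, 6.16 and 6.86 FPKM. Tpbg of that list had 1.88, 1.16 and 4.39 FPKM, and Ly6g6e 0.683, 0.545 and 4.47 FPKM, both lowest in PS19. Fezf2 of the neocortex list had 14.4, 9.625 and 33.9 FPKM, Tbr1 9.73, 5.54 and 12.83 FPKM, and Rorb 1.685, 1.9 and 1.24 FPKM. Choroid plexus markers summed to 3410, 2170 and 25.6 FPKM, with 8 of 8 lower by more than 1 log2 unit in the last. Striatum markers summed to 33.4, 29.6 and 21.2 FPKM, most of it from Ppp1r1b at 26.1, 25.2 and 15.2 FPKM. From PS19 to PS19 Zbp1+- 4 of 5 striatum genes were higher and 1 lower, or 3 and 2 in TPM. The part of dissection and of this regional makeup in the 4 genes' levels was not tested.

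Glial lists were high where the 4 genes were low. Microglia markers summed to 77.6, 209 and 99.4 FPKM, with 5 of 6 higher in PS19 than in WT. Differences there ran from -0.13 for P2ry12 and 0.16 for Tmem119 to 2.18 for Cx3cr1 and 2.56 for Fcrls. Astrocyte markers summed to 348, 1160 and 382 FPKM, of which Gfap held 98.4, 767.9 and 112.5, and oligodendrocyte markers to 753, 1360 and 477. Endothelial and meningeal markers summed to 37.5, 35.7 and 49.9, most of it from Cldn5 at 22.4, 19.1 and 38.1 FPKM. Of 7 genes of that list, 5 were higher and 2 lower in PS19 than in WT. From PS19 to PS19 Zbp1+- 6 of the 7 were lower and 1 higher, with a median of -0.22. No list gene of these types had 0 reads in a library.

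**Figure D4:**
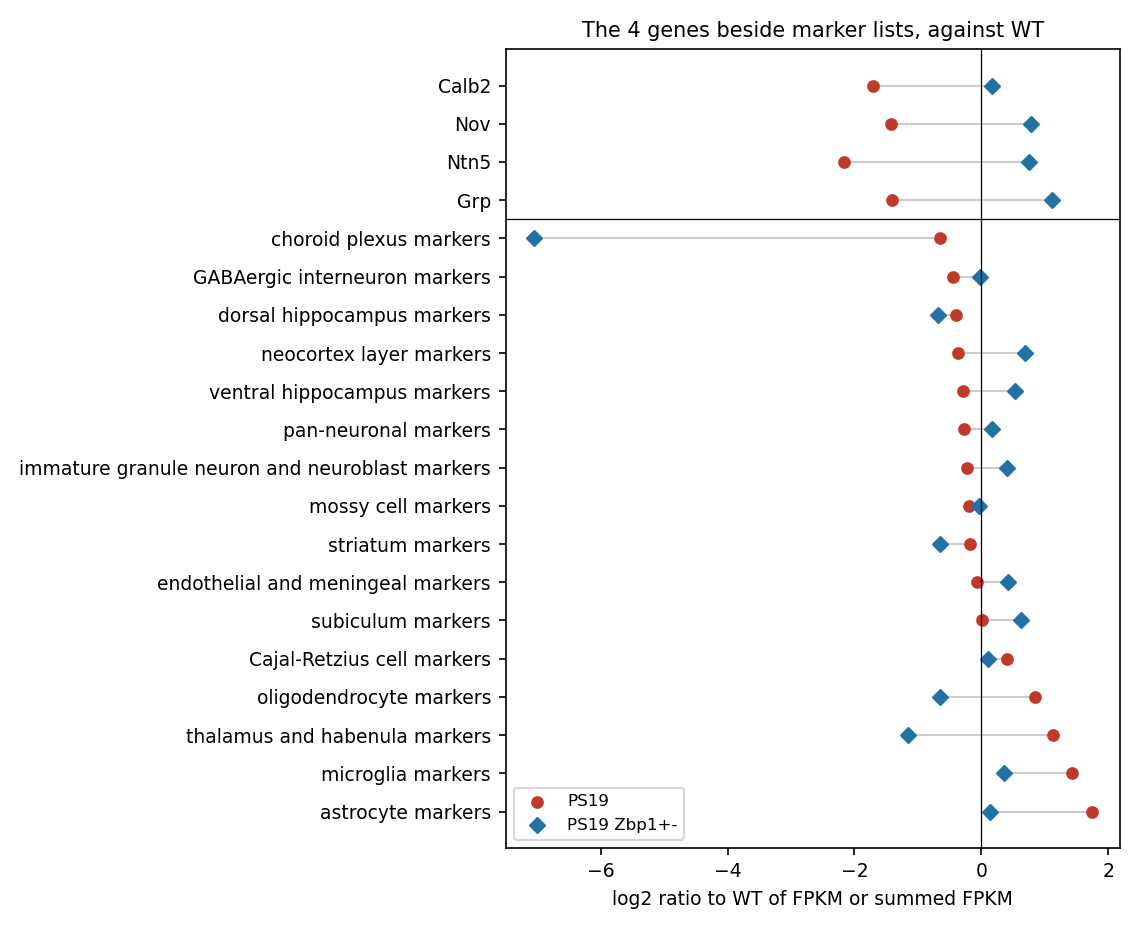
Log2 ratio to WT in PS19 (red circles) and PS19 Zbp1+- (blue diamonds) of the FPKM of the 4 genes (top) and of the summed FPKM of 16 marker lists. The red circles of the 4 genes lie further left than those of any list, from -1.41 to -2.17. These genes were chosen for a low PS19 level, so that position is a description only. The choroid plexus diamond lies furthest left of all.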

How the data were processed

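Total RNA of 3 hippocampal samples was sequenced. The authors deposited FPKM values for 54532 genes, 1 column per sample, with gene lengths and positions. Trim Galore 0.6.5, STAR 2.5.3a, featureCounts 2.0.4 and build mm39 are named, per the submitters' processing notes, with no role given. Of 54495 gene IDs also present in GENCODE M21 (GRCm38), 98.3% have the same position there, so GRCm38 positions are printed.

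FPKM times gene length was a whole multiple of 1 step, within 0.05, for 100% of values, which gave whole reads and an implied library size per column. Ratios use that size, with exact Clopper-Pearson intervals, and levels have exact Poisson intervals. PCR duplicates were not marked by molecular identifiers, so reads need not be separate molecules. Differences are of log2(FPKM + 1) over coding genes that reached 1 FPKM in one of the libraries compared. The procedure was tested on simulated data. Genes named were the 4 members, the 10 with the largest smaller gap, the 3 nearest profiles, flanking genes, family genes and leading markers. Other genes of mossy cell, ventral, immature neuron, interneuron, Cajal-Retzius, thalamus, subiculum, neocortex, striatum, endothelial and microglia lists were named after their values were seen. Members and the 20 lists were chosen with earlier results of these data known. Ntn3 of the lists was not analysed here, and some list genes are counted but not reported here by name. Intervals came from scipy 1.17.1 in Python 3.11.15.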

Additional observations from a re-analysis of the deposited data

How the results depend on the processing

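PS19 was below both other libraries for Calb2, Nov, Ntn5 and Grp under a pseudocount of 0.1, TPM and scaling by total reads. The same held for division by summed pan-neuronal markers, added after seeing the data. That direction chose the genes, and a pseudocount cannot change a sign, so this is a description only. PS19 minus WT became -2.05 for Ntn5 with a pseudocount of 0.1 and -1.15 for Nov per neuronal markers. PS19 Zbp1+- minus PS19 became 1.56 for Calb2 and 1.90 for Nov in TPM, 1.96 for Nov by total reads, 2.78 for Ntn5 with a pseudocount of 0.1, and 1.43 for Calb2 and 1.75 for Nov per neuronal markers. PS19 Zbp1+- minus WT became 0.0021, 0.0039 and -0.0131 for Calb2 in TPM, by total reads and per neuronal markers, and 0.62, 0.61 and 0.60 for Nov. TPM moved the median of all genes to 0.09, -0.23 and -0.14 in the 3 comparisons, and total reads to 0.0023, -0.12 and -0.12. Counts of genes past 1 log2 unit depended on the setting. Those lower in PS19 than in WT were 37, against 101 with a pseudocount of 0.1, 109 in TPM and 16 at a mean FPKM of at least 5, and those higher were 280, against 541, 774 and 102. From PS19 to PS19 Zbp1+- the lower counts were 659, against 1184, 2008 and 241, and the higher ones 255, against 430 with a pseudocount of 0.1 and 147 by total reads. Against WT the lower counts were 283, against 543, 913 and 78, and the higher ones 133, against 290, 207 and 87, and 78 by total reads. Genes with PS19 below both others were 18, against 59 with a pseudocount of 0.1 and 31 in TPM. The higher share of PS19 Zbp1+- against PS19, 27.9%, was 10.4% in TPM, 14.6% by total reads and 44% at a mean FPKM of 5, and against WT 32% became 18.5%, 17.3% and 52.7%. Dropping the filter changed no count, since 1 log2 unit needs an FPKM of 1. Causes were not tested. No paired analysis was possible because each genotype has 1 library. Depth limits Ntn5 most, with 32 reads in PS19.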
